A study of Rattus norvegicus with 6 samples.

Results

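Cytosolic and mitochondrial chaperones are the proteins that fold newly made or damaged polypeptides outside the endoplasmic reticulum, and 34 of their genes were followed here in rat liver. They were chosen by name: the heat shock transcription factor Hsf1, heat shock proteins, their co-chaperones and the subunits of the TRiC chaperonin. Earlier results of these data were known when the choice was made. A probe was counted as a member where its RefSeq accession belongs to 1 of those genes, which gave 76 of 61537 probes, for 32 of the 15645 genes named on the array. No probe could be tied in this way to Hspa1b or Dnajb1, so these genes were not analysed here. The liver came from 6 male Sprague-Dawley rats on a basal diet, bought at 5 weeks of age, and the RNA of each was read on a 1-colour Agilent array. Of these rats 3 received corn oil, the vehicle, and 3 received 300 mg/kg/day of TBBC, the thiobis compound of tert-butyl-m-cresol, a phenolic antioxidant. How long the rats were dosed is unclear, since 28 days is given in one label and 9 weeks in another.

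Chaperones of the HSP70 family bind short hydrophobic stretches of unfolded proteins and release them in an ATP-driven cycle, helped by J-domain proteins that deliver clients and by exchange factors that remove ADP. HSP90 takes over many late-folding clients such as kinases and steroid receptors, HSP60 with HSP10 and the TRiC ring enclose proteins in a chamber, and small heat shock proteins hold unfolded proteins without ATP. In resting cells Hsf1 is kept inactive by chaperones; when unfolded proteins occupy these, it forms trimers and switches on heat shock genes through repeats of the letters GAA in alternating orientation, called heat shock elements. Treated and control livers were compared to see how the transcripts of these families stood after dosing.

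Signals are given as log2 of the processed spot intensity relative to the array's own 75th percentile, so that 0 is the signal below which 75% of the probes of that array lay. Differences are TBBC minus vehicle on this log2 scale, with the standard error (SE) of the fit, and a probe passed at a limma p adjusted over all 37222 tested probes under 0.05. All 76 chaperone probes were well above background on all 6 arrays, and none was saturated.

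Most chaperone transcripts lay somewhat higher in the TBBC livers, and hardly any passed the test alone. The single probe that passed belongs to Dnaja2, a J-domain partner of HSP70, and rose 1.68-fold. The other, brighter probe of Dnaja2 gave 1.29-fold and did not pass. Thus 1 of 76 probes (1.32%) passed, against 3.22% of all tested probes, so a count of calls does not set the chaperones apart. The log2 difference was positive for 65 of the 76 probes (85.5%), against 44.2% of all tested probes. The median difference was 0.36 over the chaperone probes and -0.05 over all tested probes. At an unadjusted p under 0.05, 38 chaperone probes were higher and 1 was lower with TBBC, against 10.3% and 12.8% of all tested probes (23.1% in either direction). On 47 probes (61.8%) every TBBC array lay above every vehicle array, against 13.4% of all tested probes. On 1 probe, that of Hspa9, every TBBC array lay below every vehicle array, against 17.8%. Several probes can read 1 gene and are not independent: by gene, 26 of the 32 had positive differences on all their probes, 4 had negative differences on all (Hsf1, Hspa4, Hspa9 and Fkbp4) and 2 had both signs (Cdc37 and Tcp1). With arrays scaled on spike-in controls the median over all tested probes was 0.17 and that of the chaperones 0.58, a shift that each array's constant gives to all its probes alike. In bulk liver RNA, more cells of a type and more RNA per cell cannot be told apart.

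**Figure D1:**
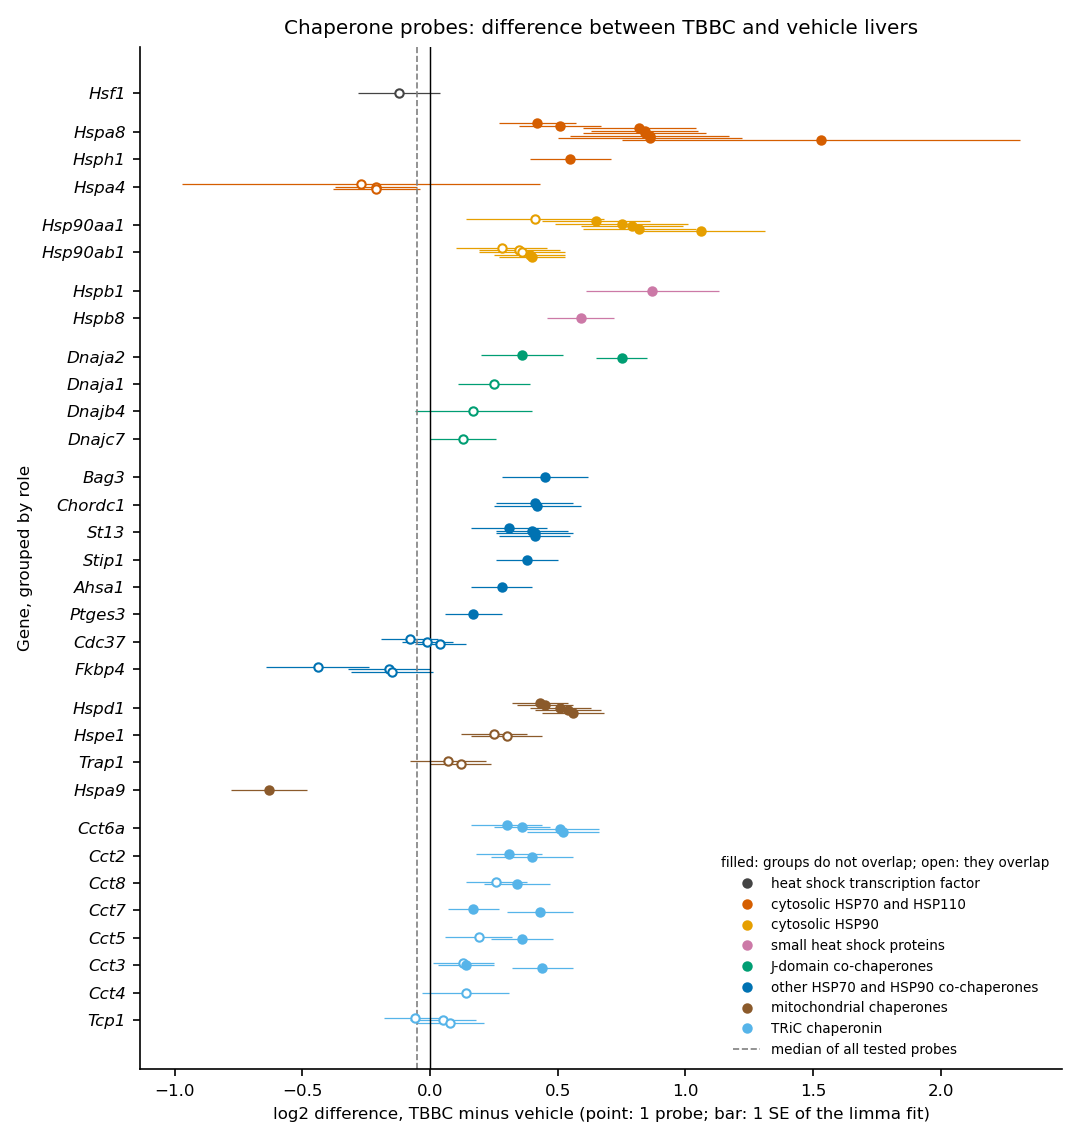
Log2 difference between TBBC and vehicle (x axis) for each of the 76 chaperone probes, by gene and role (y axis); each point is 1 probe, the bar is 1 SE, and filled points mark probes whose groups do not overlap. Most points lie right of 0 and of the dashed median of all tested probes (-0.05), while Hspa9, Hspa4, Fkbp4 and Hsf1 lie left of 0.

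Some of the members have a promoter feature that their choice did not use. RefSeq promoters (assembly GRCr8, 250 bases before to 50 after the start site) were found for 28 of the 34 genes. A heat shock element of 3 alternating units, searched as GAANNTTCNNGAA or TTCNNGAANNTTC, which are each other's reverse complement so that both strands are covered, occurred in 7 of the 28 (25%) and in 0.798% of all 33469 promoters. The 7 genes were Hspa8, Hsph1, Hspd1, Hspe1, Dnaja1, Chordc1 and Cct4, where 1 shared element counts for both Hspd1 and Hspe1. In Dnaja1, Chordc1 and Cct4 the element lies only after the start site, first beginning at base 10, 11 and 26. The 8-letter forms with a pair of units were found in 13 (GAANNTTC) and 12 (TTCNNGAA) member promoters, against 8.59% and 8.77% of all; they overlap within the longer element. The windows printed here, chosen because the element lies in them, are those upstream of the start site, 5′ to 3′ on the strand of the gene, with the element in capitals: for Hspa8 on the plus strand of chr8:50080281-50080333 and chr8:50080439-50080491, for Hsph1 on the plus strand of chr12:10427312-10427364, for Hspe1 on the plus strand of chr9:64084242-64084299 and for Hspd1 on the minus strand of chr9:64084242-64084287.
Hspa8, distal element: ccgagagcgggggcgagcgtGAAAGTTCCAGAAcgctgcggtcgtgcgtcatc
Hspa8, proximal element: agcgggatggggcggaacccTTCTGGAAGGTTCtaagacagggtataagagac
Hsph1: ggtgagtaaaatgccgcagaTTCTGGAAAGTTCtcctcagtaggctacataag
Hspe1: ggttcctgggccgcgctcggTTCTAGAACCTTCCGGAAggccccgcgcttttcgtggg
Hspd1: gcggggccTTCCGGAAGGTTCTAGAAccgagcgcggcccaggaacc
Hspe1 and Hspd1, which encode the HSP10 and HSP60 of mitochondria, are transcribed away from each other, and their start sites lie 289 bases apart. The 18 capital letters of their windows are the same genomic bases, chr9:64084262-64084279, read on opposite strands. Counted from the start site, the element begins at -65 in Hspe1 and at -242 in Hspd1, at -213 and -55 in Hspa8 and at -36 in Hsph1.
The 20 probes of the 7 genes with a 3-unit element all had positive differences (median 0.51). Of these, 8 read Hspa8 and 5 read Hspd1, so the count and the median rest largely on these genes. By gene the medians were 0.84 for Hspa8, 0.55 for Hsph1, 0.51 for Hspd1 and 0.41 for Chordc1. They were 0.27 for Hspe1, 0.25 for Dnaja1 and 0.14 for Cct4. Of the 42 tested probes of the 20 member genes with a promoter but no such element 32 had positive differences, with a median of 0.22. Positive differences made up 44.2% of all tested probes, and 7723 of the 15697 tested probes of all genes with a promoter but no such element. Over the whole array the median was 0.14 for the 79 tested probes of 40 genes with the element and -0.01 for 15697 probes of genes without it. The 79 include the 20 chaperone probes just given, so they are not a separate set. Of the 79, 52 had positive differences, among them all 20 chaperone probes. Groups were higher without overlap on 25 of the 79, among them 16 chaperone probes. This was so on 2603 of the 15697 and on 13.4% of all tested probes. These are descriptions of letters, not of binding, and Hsp90aa1, St13, Dnaja2, Dnajb4, Hsf1 and Hspa1b had no promoter sequence to search.

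Hsf1 itself, read by 1 probe, gave 1.05, 0.51 and 0.98 in the vehicle livers and 0.71, 0.75 and 0.71 in the TBBC livers, here and throughout in the order of the replicates. The groups overlapped, with a log2 difference of -0.12 ± 0.16 (SE, n = 3 per group; limma adjusted p = 0.67). With spike-in scaling the sign turned, at 0.10.

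Hspa8 encodes HSC70, the HSP70 of unstressed cells, and was read by 8 probes, each with all TBBC arrays above all vehicle arrays. Over all tested probes that share was 13.4%, and the 8 probes read 1 gene. Probe A_64_P023392 gave 7.76, 7.58 and 7.78 in vehicle and 8.15, 8.35 and 7.88 in TBBC livers, a difference of 0.42 ± 0.15 (1.34-fold, adjusted p = 0.167). Probe A_44_P396546 gave 0.51, -2.40 and 0.62 in vehicle and 1.05, 1.43 and 0.86 in TBBC livers, a difference of 1.53 ± 0.78 (adjusted p = 0.29). Vehicle replicate 2 was the lowest vehicle array on all 8. It lay 0.19 to 2.96 below the mean of the other vehicle arrays on the log2 scale, depending on the probe, whereas on the other 68 chaperone probes vehicle replicate 2 minus that mean ran from -0.71 to 0.48. Without vehicle replicate 2 the 8 differences ran from 0.36 to 0.63, with a median of 0.53 against 0.84 with it, and none passed in either fit. On every Hspa8 probe TBBC replicate 2 was the highest array and TBBC replicate 3 the lowest of the TBBC arrays. Probes of Hspa8 can also bind RNA of close relatives and of processed copies of the gene; the probe letters were not used here.

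**Figure D2:**
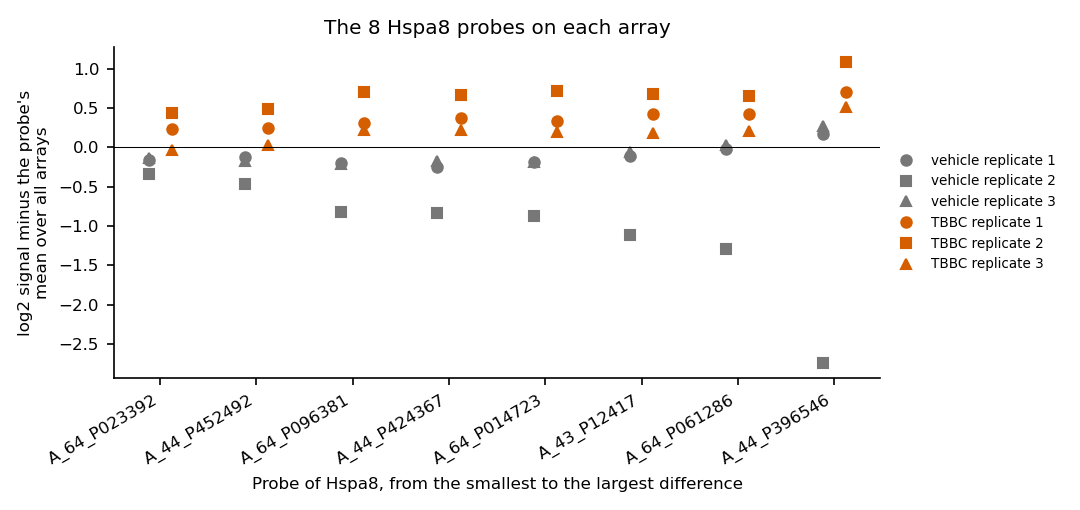
Log2 signal of each Hspa8 probe on each array, minus that probe's mean over all 6 arrays (y axis), for the 8 probes in order of their difference (x axis); grey marks are vehicle and orange marks TBBC arrays. On all 8 probes the TBBC marks lie above the vehicle marks, and vehicle replicate 2 (grey squares) lies lowest, by 0.19 to 2.96 below the mean of the other vehicle arrays.

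Hsph1 and Hspa4 are HSP110 proteins, which act as exchange factors of HSP70. Hsph1 gave -0.08, 0.03 and -0.21 in vehicle and 0.59, 0.63 and 0.18 in TBBC livers. All TBBC arrays lay higher, with a difference of 0.55 ± 0.16 (1.47-fold, adjusted p = 0.112). The 3 probes of Hspa4 had differences of -0.27 to -0.21, with overlapping groups. Its probe A_44_P476830 varied most, with 2.65, 0.84 and 0.44 in vehicle and 0.40, 0.49 and 2.21 with TBBC (-0.27 ± 0.70); the difference ran from -0.86 without TBBC replicate 3 to 0.40 without vehicle replicate 1. On probe A_64_P060809 the vehicle arrays gave 3.18, 3.03 and 3.43 and the TBBC arrays 3.26, 2.85 and 2.90, and with spike-in scaling the difference of -0.21 became 0.01. The test of the difference between Hsph1 and Hspa4 was not made. Hspa1a, the stress-inducible HSP70 and a near-identical copy of Hspa1b, is outside the 34 genes and was looked up after the values were seen. Its single probe gave -3.51, -4.44 and -4.09 in vehicle and -1.76, -1.71 and -3.25 in TBBC livers. The groups did not overlap; the difference was 1.78 ± 0.46 (3.43-fold, adjusted p = 0.0902), or 2.28 without TBBC replicate 3 (adjusted p = 0.0385, within a range of 0.0385 to 0.623 over its alternatives) and 0.86 with another background correction (normexp).

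HSP90 has a stress-inducible cytosolic form, Hsp90aa1, and a constitutive one, Hsp90ab1. All 11 probes of the pair had positive differences, against 44.2% of all tested probes. On all 11 TBBC replicate 3 was the lowest TBBC array, against 35.9% of all tested probes. For Hsp90aa1, probe A_44_P261874 gave 6.27, 6.30 and 6.24 in vehicle and 7.35, 7.22 and 6.62 in TBBC livers, a difference of 0.79 ± 0.20 (1.73-fold, adjusted p = 0.086). The vehicle arrays lay close together while the TBBC arrays spread widely, all of them above vehicle. The largest of its 6 differences was 1.06 ± 0.25 on A_44_P135339 (1.49, 1.00 and 1.54 in vehicle; 2.69, 2.61 and 1.90 with TBBC). The smallest was 0.41 ± 0.27 on A_44_P299870 (3.67, 4.10 and 3.55 against 4.55, 4.36 and 3.63), where the groups overlapped. Without TBBC replicate 3 the range of the 6 differences moved from 0.41 to 1.06 to 0.68 to 1.30 and 2 of them passed: A_64_P023633 (1.08, adjusted p = 0.0351, within 0.0351 to 1.0 over its alternatives) and A_44_P261874 (1.01, adjusted p = 0.0414, within 0.0363 to 1.0). Hsp90ab1 showed 0.28 to 0.40 on 5 probes, of which 2 had groups that did not overlap. Of all tested probes 13.4% were higher without overlap. Its probe A_44_P287194 gave 6.42, 6.56 and 6.32 in vehicle and 6.96, 6.81 and 6.37 with TBBC (0.28 ± 0.18, adjusted p = 0.379), where TBBC replicate 3 fell within the vehicle range.

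Among the other partners of HSP70 and HSP90, none of 16 probes passed, against 3.22% of all tested probes, and the median difference was 0.29. Groups were higher without overlap on 10 of the 16, against 13.4% of all tested probes. St13, which encodes the HSP70-binding Hip, had 4 probes with differences of 0.31 to 0.41 and no overlap on any of them; probe A_44_P493284 gave 5.35, 5.32 and 5.43 in vehicle and 6.02, 5.70 and 5.58 with TBBC. Chordc1, an HSP90-binding zinc protein, had 0.41 and 0.42 on its 2 probes, again without overlap. Stip1, the adaptor Hop that hands clients from HSP70 to HSP90, gave 0.83, 0.73 and 0.62 in vehicle and 1.09, 1.22 and 1.00 with TBBC (0.38 ± 0.12, adjusted p = 0.132). Bag3, which links HSP70 to autophagy together with Hspb8, gave 3.30, 3.17 and 3.18 in vehicle and 3.89, 3.80 and 3.32 with TBBC (0.45 ± 0.17, adjusted p = 0.186). The activator of the HSP90 ATPase, Ahsa1, had a difference of 0.28 ± 0.12 and the p23 protein Ptges3 one of 0.17 ± 0.11, each without overlap. Cdc37, which brings kinases to HSP90, stayed near 0 on all 3 probes (-0.08 to 0.04), and A_64_P147308 gave 5.71, 5.74 and 5.77 in vehicle and 5.76, 5.74 and 5.71 with TBBC. Fkbp4, the immunophilin of steroid receptor complexes, had -0.44 to -0.15 on 3 probes, all with overlapping groups; on A_44_P179282 the values were 3.84, 3.69 and 3.45 in vehicle and 3.61, 3.66 and 3.26 with TBBC, and with spike-in scaling that difference of -0.15 became 0.07.

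The small heat shock proteins Hspb1 and Hspb8, holdases that keep unfolded proteins soluble, each had 1 probe with no overlap. Of all tested probes 13.4% were higher without overlap. Hspb1 gave 2.57, 2.58 and 2.85 in vehicle and 4.07, 3.05 and 3.51 with TBBC, a difference of 0.87 ± 0.26 (1.83-fold, adjusted p = 0.119). TBBC replicate 1 was its highest array, in contrast to Hspa8. Hspb8 gave 1.60, 1.26 and 1.40 in vehicle and 1.98, 2.14 and 1.92 with TBBC, a difference of 0.59 ± 0.13 (1.51-fold, adjusted p = 0.0674), and it passed with a trended, robust variance model (adjusted p = 0.0421, within 0.0421 to 1.0 over its alternatives).

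J-domain proteins stimulate the ATPase of HSP70. On probe A_44_P521687 Dnaja2 gave 0.51, 0.46 and 0.57 in vehicle and 1.25, 1.33 and 1.19 with TBBC. The groups lay well apart, and Dnaja2 rose by 0.75 ± 0.10 (1.68-fold, adjusted p = 0.0241), the only one of the 76 to pass. The call held in 8 of 17 alternatives (adjusted p 0.00786 to 0.828) and was lost without any 1 of the 6 arrays, where the difference was 0.71 to 0.78. Its other probe, A_43_P12723, gave 1.99, 1.71 and 2.29 in vehicle and 2.31, 2.41 and 2.36 with TBBC (0.36 ± 0.16, adjusted p = 0.242), also without overlap. Dnaja1 had a difference of 0.25 ± 0.14 (5.50, 5.27 and 5.42 in vehicle; 5.66, 5.83 and 5.45 with TBBC), Dnajb4 one of 0.17 ± 0.23 and Dnajc7 one of 0.13 ± 0.13. In these 3 genes TBBC replicate 3 lay within the vehicle range.

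**Figure D3:**
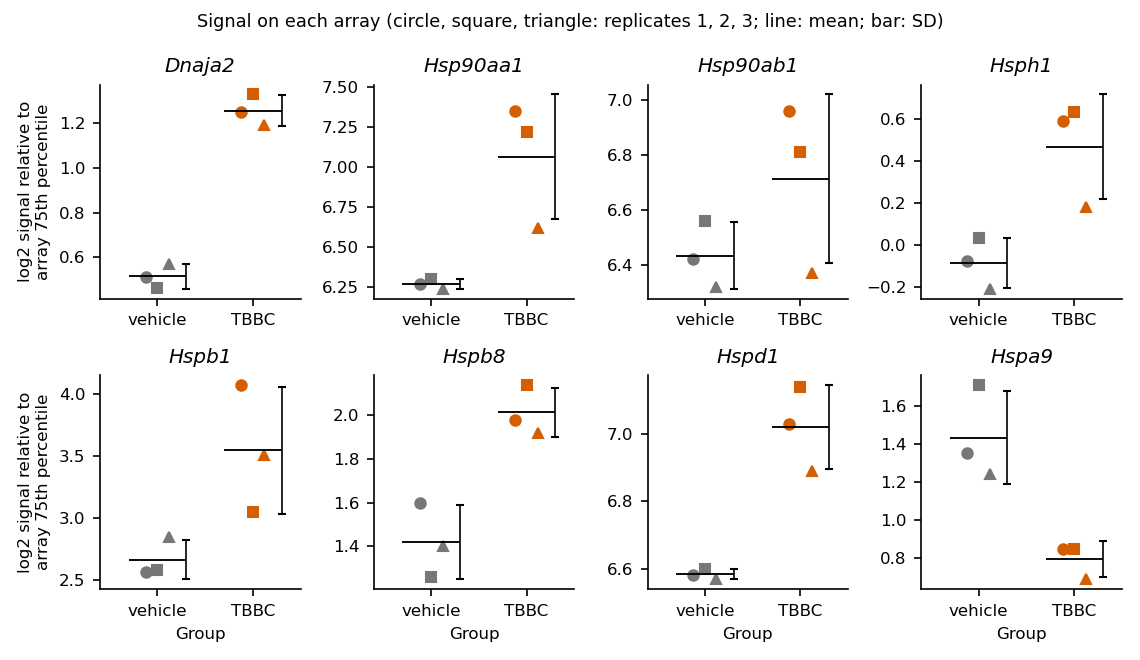
Log2 signal relative to the array's 75th percentile (y axis) on each array by group (x axis) for 8 chaperone genes, 1 probe each; horizontal lines are group means and bars SD (n = 3 per group), and the y axes differ between genes and do not start at 0. Dnaja2, which passed, shows tight groups far apart; Hsp90aa1 and Hsp90ab1 show TBBC replicate 3 (triangle) near or within the vehicle range; Hspa9 runs the other way.

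Of the mitochondrial chaperones, Hspd1 (HSP60) had all TBBC arrays above all vehicle arrays on each of its 5 probes. Over all tested probes that share was 13.4%. The 5 differences were 0.43 to 0.56, with limma adjusted p values of 0.0626 to 0.0897, so none passed in the main fit. All 5 passed with the trended, robust variance model, 2 with normexp and 1 with median centring. Probe A_64_P076567 gave 6.58, 6.60 and 6.57 in vehicle and 7.03, 7.14 and 6.89 with TBBC (0.43 ± 0.11, 1.35-fold). Hspe1 (HSP10), the lid of the HSP60 chamber that is transcribed from the shared promoter region shown above, had 0.25 and 0.30 on 2 probes. Its probe A_43_P11636 gave 7.07, 6.99 and 7.04 in vehicle and 7.48, 7.45 and 7.07 with TBBC (0.30 ± 0.14, adjusted p = 0.262), with TBBC replicate 3 at the vehicle level. Trap1, the HSP90 of mitochondria, had 0.07 and 0.12, with overlap; A_64_P151515 gave 6.20, 6.19 and 6.04 against 6.16, 6.40 and 6.23. Hspa9, the mitochondrial HSP70 that pulls precursors through the import pore, went the other way. Its single probe gave 1.35, 1.71 and 1.24 in vehicle and 0.85, 0.85 and 0.69 with TBBC, a difference of -0.63 ± 0.15 (0.644-fold, adjusted p = 0.0789). All TBBC arrays lay below all vehicle arrays, and the difference was -0.73 to -0.41 over 17 alternatives, past the threshold in 1 of them (normexp, adjusted p = 0.0378, within 0.0378 to 1.0).

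TRiC, the cytosolic ring of 8 different subunits that folds actin and tubulin, was read by 19 probes for all 8 subunits. None passed, 18 had positive differences, 12 were higher without overlap, and the median was 0.30. Of all tested probes 44.2% had positive differences and 13.4% were higher without overlap. Cct6a had the largest values, 0.30 to 0.52 on 4 probes, none with overlap: probe A_64_P021181 gave 4.48, 4.15 and 4.60 in vehicle and 4.97, 5.00 and 4.77 with TBBC (0.51 ± 0.15, adjusted p = 0.12). Cct2 (0.31 and 0.40) and Cct7 (0.17 and 0.43) had no overlap on either of their probes, and Cct5 (0.19 and 0.36) and Cct8 (0.26 and 0.34) had none on 1 of their 2. Cct3 gave 0.44 on A_44_P525827 but 0.13 and 0.14 on its other probes, so that the size depends on the probe; on A_44_P360325 the arrays read 6.21, 6.33 and 6.38 in vehicle and 6.57, 6.41 and 6.31 with TBBC. Cct4 had 0.14 ± 0.17 and turned to -0.03 without vehicle replicate 2. Tcp1, the alpha subunit, had -0.06 to 0.08 on 3 probes, and A_42_P675372 gave 5.87, 5.92 and 5.94 against 6.03, 5.78 and 5.73. Thus subunits of 1 complex did not all show the same size of difference, though no difference between subunits was tested.

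The TBBC arrays did not carry the difference equally. Each animal was read on 1 array, so animal and array cannot be told apart. TBBC replicate 3 also had the fewest probes well above background, 36919, against 39094 and 39386 on TBBC replicates 1 and 2. What sets this array apart was not tested. Relative to each probe's vehicle mean, the median over the 76 probes was 0.44 on TBBC replicates 1 and 2 and 0.16 on TBBC replicate 3, with 0.02, -0.06 and 0.05 on the vehicle arrays. TBBC replicate 3 was the lowest TBBC array on 65 of 76 chaperone probes (85.5%), against 35.9% of all tested probes. For the HSP90 pair the medians were 0.77, 0.59 and 0.17, for the HSP70 group 0.70, 0.91 and 0.61, and for TRiC 0.31, 0.40 and 0.16 on TBBC replicates 1 to 3. Over all tested probes they were -0.05, -0.03 and -0.05. Leaving out TBBC replicate 3 raised the chaperone median to 0.44 and the probes without overlap to 60, against 17.5% of all probes in those 5 arrays; leaving out any other array gave medians of 0.29 to 0.38 and 47 to 52 such probes, against 16.0% to 18.9% of all.

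**Figure D4:**
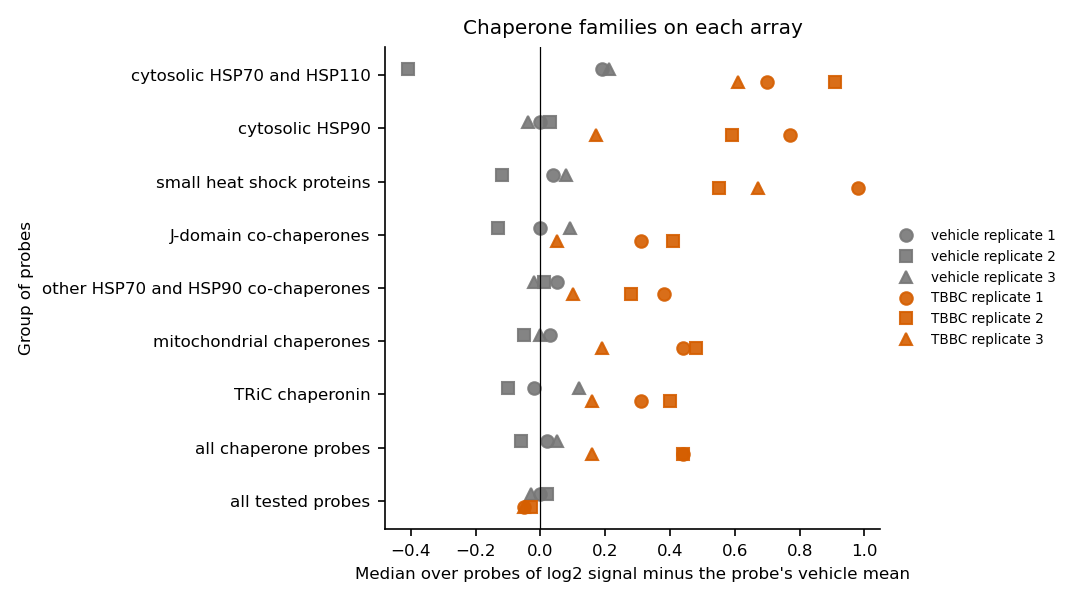
Median over the probes of each chaperone family of the log2 signal minus the probe's vehicle mean (x axis), for each array (marks) and family (y axis). TBBC arrays (orange) lie right of the vehicle arrays (grey) in 6 of the 7 families drawn (Hsf1, a single probe, is not drawn), but among the J-domain co-chaperones TBBC replicate 3 (0.05) lies left of vehicle replicate 3 (0.09); TBBC replicate 3 (triangle) lies lowest of the TBBC arrays in the families drawn other than the small heat shock proteins, and all tested probes stay near 0.

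Other proteostasis genes were listed for comparison. Of all tested probes 3.22% passed, 23.1% had an unadjusted p under 0.05, 44.2% had positive differences and 13.4% were higher without overlap. The median difference of the further HSP90 co-chaperones and ligases was 0.17 (29 probes, 0 past the threshold, 5 at an unadjusted p under 0.05 by limma), of prefoldin, which delivers actin and tubulin to TRiC, 0.16 (5 probes, 0 past and 0 at an unadjusted p under 0.05), and of other heat shock factors and regulators 0.08 (6 probes, 0 past, 1 unadjusted). The further HSP70, J-domain and BAG genes had a median of -0.04 over 29 probes; 1 fell, Dnajc12, a J-domain partner of the aromatic amino acid hydroxylases, from 2.06, 1.96 and 2.11 to 1.07, 1.30 and 1.00 (-0.92 ± 0.12, adjusted p = 0.0225). Of 4 probes for other small heat shock proteins 1 passed, Hspb2, which fell from 4.43, 4.31 and 4.27 to 3.53, 3.43 and 3.29 (-0.92 ± 0.12, adjusted p = 0.0192). Cryab, the alpha B crystallin, named after its values were seen, gave 0.05, 0.16 and 0.17 in vehicle and 2.04, 0.66 and 0.88 with TBBC (1.07 ± 0.35, adjusted p = 0.141); as in Hspb1, TBBC replicate 1 was the highest array. The mitochondrial import motor, co-chaperones and proteases had a median of -0.03 over 24 probes (0 past, 3 at an unadjusted p under 0.05). Chaperones of the endoplasmic reticulum had a median of -0.13 over 21 probes, with 7 positive, 0 past the threshold and 0 at an unadjusted p under 0.05. Proteasome core and base subunits had a median of 0.43 over 32 probes, with 31 positive, 31 higher without overlap and 27 at an unadjusted p under 0.05; 3 rose, Psma7 (0.63 ± 0.11, adjusted p = 0.0369), Psma1 (0.60 ± 0.11) and Psmb6 (0.59 ± 0.11), and TBBC replicate 3 was the lowest TBBC array on 2 of the 32. No test set the chaperones against these lists, which were measured on the same animals.

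**Figure D5:**
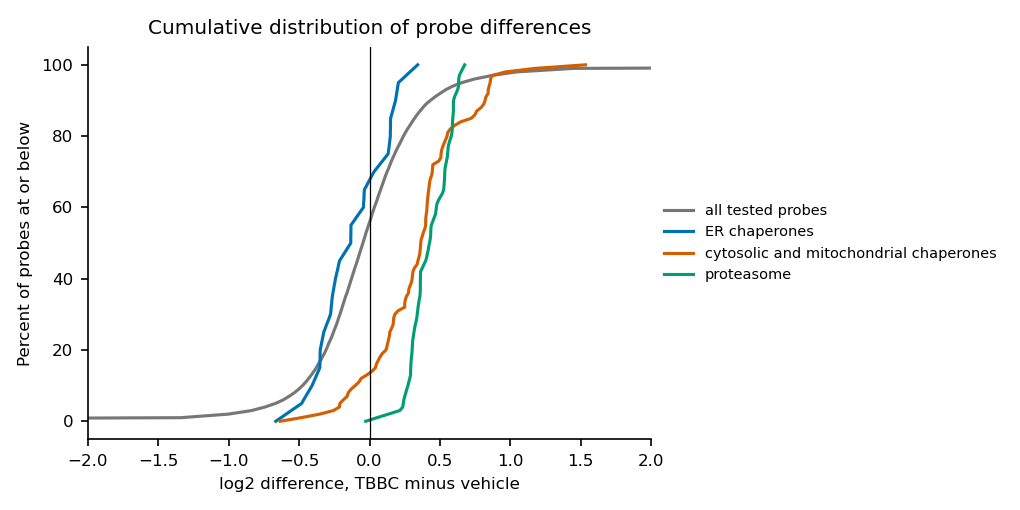
Cumulative percent of probes (y axis) at or below each log2 difference, TBBC minus vehicle (x axis, from -2 to 2), for all tested probes, chaperones of the endoplasmic reticulum, the 76 cytosolic and mitochondrial chaperone probes and proteasome subunits. Over most of its length the chaperone curve (median 0.36) lies right of that of all tested probes (median -0.05), while the curve of the endoplasmic reticulum (median -0.13) lies left of it at the median.

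The 75th percentile of the signal was 465.2 to 638.2 and 36919 to 39386 probes were well above background on the 6 arrays; their number limits the precision. All vehicle arrays were on 1 slide and scan and all TBBC arrays on another, so slide and treatment cannot be told apart. All 7 hepatocyte markers were well above background. Their summed linear signal (in multiples of the 75th percentile) was 8790 to 10700 in vehicle and 8090 to 8360 in TBBC livers. Of their 12 probes 11 had negative differences and 1 a positive one, with a median of -0.22; 44.2% of all tested probes were positive. Groups were lower without overlap on 6 of the 12, against 17.8% of all tested probes. Only that of Apoa1 passed, and it was lower with TBBC. The summed signal of 4 bile duct markers was 1.12 to 1.23 in vehicle and 2.68 to 4.09 with TBBC, and Epcam rose by 1.83 ± 0.21 (adjusted p = 0.0149). The other bile duct markers had overlapping groups and did not pass, with 0.44 ± 0.38 for Krt19, 0.25 ± 0.48 for Spp1 and -0.33 ± 0.24 for Krt7. That of 5 stellate cell markers was 6.84 to 11.6 and 5.81 to 9.06, with 7 of 8 probes negative and a median of -0.34, while Rgs5 alone went the other way and passed (0.95 ± 0.12). Kupffer cell markers summed to 136 to 288 and 134 to 297, endothelial markers to 26.7 to 47.6 and 34.1 to 39.3, and markers of T, B and NK cells to 2.69 to 2.96 and 1.77 to 2.55, with Cd2 and Cd3e not well above background on any array. Erythroid markers summed to 171 to 276 and 194 to 261 and neutrophil markers to 2.43 to 3.51 and 1.52 to 7.46. The part of these cell types in the chaperone values was not tested.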

How the data were processed

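The deposited files are scanner output with spot intensity on a linear scale, extracted with Agilent Feature Extraction 10.7.1.1 per the file headers (10.7 per the submitters' processing notes), with background already subtracted; the deposited value table holds the same intensity times 1 constant per array. After control spots and 25 probes flagged as outliers were dropped, log2 intensity was centred on each array's 75th percentile. A probe entered the test, on its own, where every array of either group read it well above background (37222 probes). RefSeq accessions without versions, looked up in the GRCr8 gene table, named 28206 of 61537 probes; the array design names the build rn4, so no probe coordinates are given. The test was that of limma 3.58.1 under R 4.3.3 (two-sided, from lmFit and eBayes without covariates, Benjamini-Hochberg over all tested probes), tested on simulated data. The labels speak of separate animals, so p-values rest on the spread between animals within a group. Each group was on its own slide, so that spread holds no difference between slides, while the tested difference can. The members, lists and tests were chosen with earlier results of these data known. Values are printed for probes past the threshold, the brightest probe of the main genes, and the extreme probes of genes whose probes span over 0.5. Probes A_44_P476830 of Hspa4 and A_44_P493284 of St13 are printed outside this rule. Of other lists up to 3 genes past the threshold are named. The files hold no mean spot signal, so normexp (offset 50) used the median signals. Other alternatives were quantile, median and spike-in scaling, other dim-probe filters, the deposited table, 1 probe per gene, other variance models, a replicate block and leaving out each array.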

Additional observations from a re-analysis of the deposited data

How the results depend on the processing

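The median chaperone difference was positive under every alternative that gives one: it was 0.58 with spike-in scaling, which shifts whole arrays, and 0.28 to 0.46 under the others, with 0.29 to 0.44 when 1 array was left out. The count of chaperone probes past the threshold, 1, was 2 with median centring, 7 with a trended and robust variance model and 8 with normexp (7 higher, and Hspa9 lower). It was 0 without a filter on dim probes, with 1 probe per gene, with treat against 0.5 and with the replicate block, and 0 to 2 when 1 array was left out. Over all probes the 1198 calls became 264 without a filter on dim probes, 158 with treat, 298 with the replicate block, 2103 with normexp and 145 to 496 when 1 array was left out. Replicate numbers did not pair the arrays: same-numbered deviations correlated at 0.005, -0.032 and 0.15, so the block is only an alternative. The share of higher among all calls was 55.4%, 72.8% with median centring and 82.5% with spike-in scaling. A set of 36 probes was followed: the brightest of each gene, the extreme ones of genes spanning over 0.5, and the 1 that passed. Of these 30 kept their sign throughout, and the signs that turned belong to differences that did not pass. Probe A_44_P476830 of Hspa4, printed above but outside the 36, ran from -0.86 to 0.40. With spike-in scaling Cdc37 was at 0.22, Tcp1 at 0.16, Hsf1 at 0.10, Fkbp4 at 0.07 and Hspa4 at 0.01. With median centring Cdc37 was at 0.09 and Tcp1 at 0.04, and with normexp Cdc37 at 0.06 and Tcp1 at 0.07. Cdc37 was at 0.00 with array weights and at -0.02 to 0.01 when 1 array was left out (0.01 without vehicle replicate 3 or TBBC replicate 3), and Cct4 at -0.03 without vehicle replicate 2. The causes were not tested. All 76 chaperone probes were well above background on all arrays, and the groups hold 3 arrays each.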
